A study of Homo sapiens with 10 samples.

Results

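The replication-dependent histone genes are the clustered genes that encode the linker histone H1 and the core histones H2A, H2B, H3 and H4. They were chosen by name, as protein-coding genes with the current symbols H1-1 to H1-6, H2AC, H2BC, H3C and H4C plus a number, or with older HIST1H, HIST2H or HIST3H names, and were matched to the deposited tables by Ensembl ID. Of 55889 gene IDs in the tables, 37 were such genes: 6 for H1, 9 for H2A, 11 for H2B, 7 for H3 and 4 for H4. In GENCODE 29, 23 of them lie on chromosome 6, 12 on chromosome 1 and 1 each on chromosomes 12 and 21. Another 39 IDs that the rule names (10 for H2A, 8 for H2B, 10 for H3 and 11 for H4) are not among the IDs of the tables and were not analysed here. The H1 family is therefore complete, whereas the core histone types are represented by a part of their genes.

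The cells were of the line KOPT-K1, established from a human T-cell acute lymphoblastic leukaemia. They were exposed for 45 minutes to 25 nM silvestrol, a plant-derived inhibitor of eIF4A, the helicase that unwinds mRNA during translation initiation, or to the solvent DMSO. Ribosome-protected fragments (footprints) were sequenced from 2 libraries per treatment and total RNA from 3 libraries per treatment. The labels do not say whether the libraries came from separate cultures, so each p-value reflects the variation among these libraries alone, and that variation may be technical.

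Replication-dependent histone mRNAs are made mainly in S phase, when newly copied DNA has to be packed into nucleosomes. They are the only metazoan mRNAs known to end as a rule in a conserved stem-loop in place of a poly(A) tail. The stem-loop-binding protein SLBP binds this element and takes part in the processing, export, translation and decay of the mRNA, and NPAT activates the transcription of the clusters. H2A, H2B, H3 and H4 form the nucleosome core, and H1 binds the linker DNA where it enters and leaves that core.

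The stem-loops of 9 members are shown because this element sets these mRNAs apart from polyadenylated ones. Each line gives 26 bases of the 3′ UTR, 5′ to 3′, with the 16 bases of the stem-loop in capitals. They were read from the GENCODE 29 transcripts, and the coordinates of the capitals are on GRCh38, not on the build hg19 named for the deposited data.
H2AC6: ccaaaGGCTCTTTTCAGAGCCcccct
H2AC11: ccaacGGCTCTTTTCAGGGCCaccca
H2AC13: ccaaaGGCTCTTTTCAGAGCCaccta
H2BC4: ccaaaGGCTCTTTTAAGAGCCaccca
H2BC5: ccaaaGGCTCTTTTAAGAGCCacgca
H2BC13: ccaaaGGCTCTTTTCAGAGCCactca
H2BC21: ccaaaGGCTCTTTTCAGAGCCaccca
H4C8: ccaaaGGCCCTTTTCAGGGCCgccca
H4C16: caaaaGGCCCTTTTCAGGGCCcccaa
The stem-loop of H2BC5 lies at chr6:26158587-26158602 (plus strand), 36 bases after the stop codon. That of H4C8 lies at chr6:26285131-26285146 (minus strand), 41 bases after the stop codon, and that of H4C16 at chr12:14770724-14770739 (minus strand). The form most frequent among members, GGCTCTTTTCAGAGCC, was found in 11 of the 37 (29.7%) and the wider histone stem-loop consensus in 18 (48.6%). Over 19922 protein-coding genes with a coding transcript, 18 (0.0903%) held the first and 36 (0.181%) the second. The search ran along the transcribed strand of every annotated 3′ UTR, whose lengths differ between genes. For 14 members GENCODE 29 ends the transcript at the stop codon, so a missing match says only that the letters are not in the annotated window. H1-5, H1-2, H2AC7, H3C4 and H3C12 are among those 14.

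By the step size of the low values, the silvestrol footprint libraries held about 2.38 and 2.03 M reads (M being the SI prefix mega) and the DMSO footprint libraries about 2.27 and 1.66 M reads. The RNA libraries held 126.63 to 178.02 M reads after silvestrol and 160.5 to 216.78 M reads in DMSO. T-cell identity was as labelled: the means of all 7 T-cell markers, among them CD3D, CD3E and CD2, were at least 38.3 RPKM in footprints and 43.4 RPKM in RNA. Of 12 markers of B cells, myeloid cells, erythroid cells and fibroblasts, 10 were under 1 RPKM in RNA and in footprints. The exceptions were CD79A, at 31.4 RPKM in RNA, and CD79B, both B-cell receptor components. The summed footprints of these 12 markers were 42.2 to 46.0 RPKM after silvestrol and 51.7 to 54.3 RPKM in DMSO, groups that did not overlap, and those of the T-cell markers were 1855 to 2009 RPKM after silvestrol and 2133 to 2176 RPKM in DMSO. The part of either difference in the histone results was not tested.

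Footprints on the histone genes were among the most abundant of protein-coding genes in these cells. Of the 37 members, 10 had a mean of at least 1000 RPKM over the 4 footprint libraries, 21 had at least 100 RPKM, 9 lay between 1 and 100 RPKM and 7 were under 1 RPKM. RPKM scales reads to gene length and library size. The coding part is 9.29% (H2BC15) to 100% (such as H1-5) of the annotated exon length of members. Footprint levels per gene length and per coding length can therefore rank them differently. Members are ordered by RPKM below. Among 19116 protein-coding IDs, 8 of the 10 highest footprint levels, 11 of the 20 highest and 19 of the 50 highest belonged to members. With levels put on the annotated coding length of every gene in place of its exon length, the counts were 8 of 10, 11 of 20 and 15 of 50. Among all 55889 IDs, which include noncoding RNAs, members held 0 of the 10, 2 of the 20 and 10 of the 50 highest levels. In total the members took an estimated 3.10% and 3.19% of footprint reads after silvestrol and 2.97% and 2.77% in DMSO. These shares are estimates, because no source used here gives the lengths that the authors used: of 47 low values of 9 members, 34 came out within 0.1 of a whole read at GENCODE 29 lengths. In bulk samples, fewer cells in S phase and less histone mRNA per cell cannot be told apart.

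By RPKM, H1-5 had the highest footprint level of all members, and 4 of the 5 highest were linker histone genes. Per coding length, H1-5 was not first. H4C8 had an estimated 8230 to 10027 footprint reads after silvestrol and 5355 to 9021 in DMSO over 312 coding bases. H1-5 had an estimated 7857 to 8774 after silvestrol and 5691 to 7965 in DMSO over 681 coding bases. H1-5 had 5420 and 5670 RPKM after silvestrol, against 5160 and 5030 RPKM in DMSO. H1-4 had 4050 and 4630 RPKM after silvestrol, against 3800 and 3940 RPKM in DMSO. H1-2 had 3700 and 3940 RPKM after silvestrol, against 3310 and 3230 RPKM in DMSO. For each of these 3 genes both silvestrol libraries lay above both DMSO libraries. H1-3 was close to H1-2, with 3490 and 3600 RPKM after silvestrol and 3210 and 3140 RPKM in DMSO. The other linker genes were far lower. H1-6, the linker histone of the testis, had 15.7 and 23.7 RPKM after silvestrol and 26.2 and 29.9 RPKM in DMSO, and H1-1 had a value above 0 in 1 DMSO library only, 0.771 RPKM.

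Among the H2A genes, which form a dimer with H2B, H2AC7 stood highest. It had 2790 and 2970 RPKM after silvestrol and 2490 and 2410 RPKM in DMSO. H2AC21 had 821 and 795 RPKM after silvestrol and 726 and 686 RPKM in DMSO. H2AC6 had 648 and 628 RPKM after silvestrol and 652 and 578 RPKM in DMSO. The treatments did not overlap for H2AC7 and H2AC21 and overlapped for H2AC6. H2AC20 had 404 and 332 RPKM after silvestrol and 287 and 310 RPKM in DMSO, without overlap. Of the H2B genes, H2BC5 was highest, with 1700 and 2000 RPKM after silvestrol and 1960 and 1960 RPKM in DMSO. H2BC11 had 769 and 872 RPKM after silvestrol and 859 and 700 RPKM in DMSO, and H2BC13 had 615 and 579 RPKM after silvestrol and 571 and 640 RPKM in DMSO. All 3 overlapped between treatments. H2BC1, the H2B of the testis, had 1.93 and 2.25 RPKM after silvestrol and 0 in both DMSO libraries, and H2BC26 was listed at 0 in all 10 libraries. Between these extremes, H2AC11, H2AC13, H2BC4, H2BC15 and H2BC21 had means of 369 to 581.5 RPKM over the 4 footprint libraries, while H2AC1, H2AC25, HIST2H2AA3, H2BC12L and H2BC18 had means of 0.221 to 3.27 RPKM.

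H3 and H4 form the tetramer at the centre of the nucleosome. H3C4 had 2950 and 2960 RPKM after silvestrol and 3110 and 3090 RPKM in DMSO, so both silvestrol libraries lay below both DMSO libraries. H3C12 had 2080 and 1990 RPKM after silvestrol and 1970 and 1690 RPKM in DMSO. H3C13 was much lower, at 61.4 and 65.8 RPKM after silvestrol and 64.4 and 61.5 RPKM in DMSO. The other H3 genes, HIST2H3PS2, H3C14, H3C15 and the testis gene H3-4, had means of 0.194 to 4.92 RPKM, and H3-4 was above 0 in 1 silvestrol library only (6.13 RPKM). By RPKM, H4C3 was the highest core histone gene, with 5090 and 4810 RPKM after silvestrol and 4040 and 3640 RPKM in DMSO. H4C8 had 1950 and 1870 RPKM after silvestrol and 1840 and 1490 RPKM in DMSO. H4C16, a single gene outside the large clusters, had 42.9 and 37.9 RPKM after silvestrol and 30.1 and 28.7 RPKM in DMSO. All 3 H4 genes had both silvestrol values above both DMSO values.

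**Figure D1:**
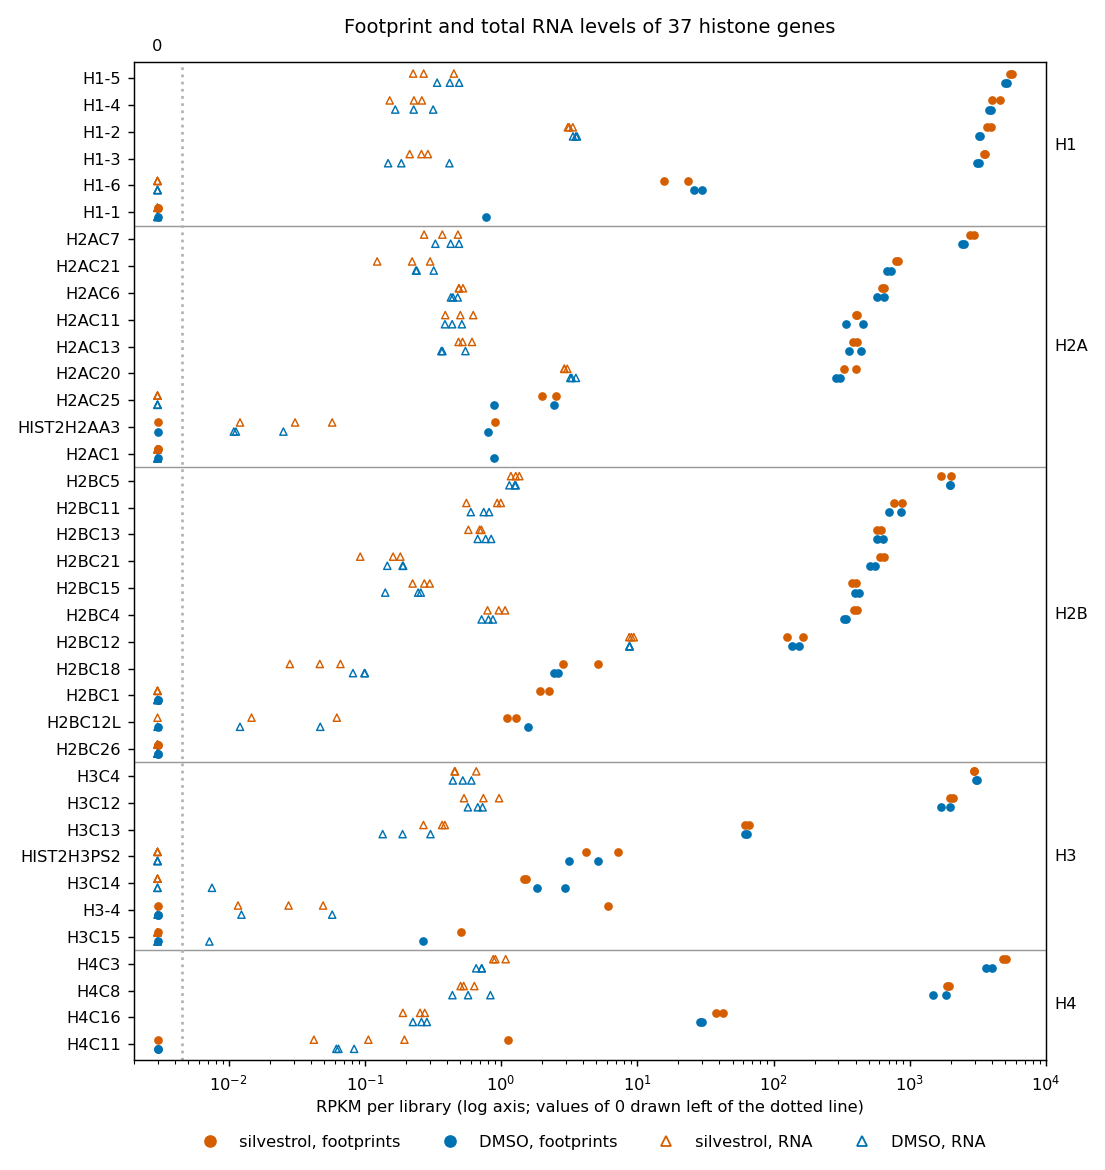
RPKM of each of the 37 histone genes in every library, on a log axis, grouped by histone type and ordered by mean footprint level. Filled circles are footprints and open triangles total RNA, silvestrol above DMSO in each row. Values of 0 are drawn left of the dotted line. For 28 genes every footprint library lies right of every RNA library.

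In total RNA the levels of the same genes were low. At this depth low levels still held reads: H2BC12 had an estimated 437 to 722 per RNA library. H1-2 had 257 to 469 and H4C8 138 to 391. Of the 37 members, 4 had a mean of at least 1 RPKM over the 6 RNA libraries, 19 lay between 0.1 and 1 RPKM, 14 were under 0.1 RPKM, and 7 of those were listed at 0 in all 6. The 37 genes together took an estimated 0.00171% to 0.00183% of RNA reads after silvestrol and 0.00175% to 0.00177% in DMSO. H2BC12 had the highest RNA level, with 9.05, 8.72 and 9.42 RPKM after silvestrol and 8.79, 8.74 and 8.78 RPKM in DMSO, while its footprints were only 126 and 165 RPKM after silvestrol and 155 and 137 RPKM in DMSO. H1-2 had 3.16, 3.36 and 3.09 RPKM in RNA after silvestrol and 3.61, 3.37 and 3.54 RPKM in DMSO. H2AC20 had 2.91, 3.06 and 2.91 RPKM after silvestrol and 3.54, 3.30 and 3.22 RPKM in DMSO. H2BC5 had 1.18, 1.28 and 1.36 RPKM after silvestrol and 1.15, 1.26 and 1.28 RPKM in DMSO. H1-2 and H2AC20 were lower in every silvestrol library than in every DMSO library, and H2BC12 and H2BC5 overlapped.

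The order of the genes in RNA was not that in footprints. H1-4 was the third member by footprint RPKM. In RNA it had 0.262, 0.229 and 0.152 RPKM after silvestrol and 0.228, 0.317 and 0.167 RPKM in DMSO. That is an estimated 17.3 to 51.8 reads per library. H1-5 had 0.450, 0.270 and 0.226 RPKM after silvestrol and 0.492, 0.420 and 0.339 RPKM in DMSO. H4C3 had 0.875, 0.907 and 1.08 RPKM after silvestrol and 0.720, 0.656 and 0.721 RPKM in DMSO. Across the 30 members with at least 1 RPKM in footprints, log2 levels in footprints and RNA correlated with Pearson's r of 0.63 and Spearman's rho of 0.53. These are correlations across genes that share libraries, gene lengths and sequence, so they are given as a description only. H1-6, H2AC25, H2BC1 and HIST2H3PS2 had footprints of at least 1 RPKM and were listed at 0 in all RNA libraries, so no ratio can be given for them.

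Every member that could be tested had more footprints than RNA, by a wide margin. A gene entered this comparison with a mean of at least 1 RPKM in footprints and 0.1 RPKM in RNA, which 23 members and 11020 genes in all passed. After silvestrol 23 of 23 members were higher in footprints than in RNA (limma, Benjamini-Hochberg adjusted p under 0.05), as were 10.9% of all genes. In DMSO 23 of 23 were higher, against 10.9% of all genes. With a log2 ratio at least 2 above the median of all genes as a further condition, the count stayed at 23 of 23 in each treatment, against 5.01% of all genes after silvestrol and 4.63% in DMSO. The members' median log2 ratio was 10.18 after silvestrol and 10.38 in DMSO, and that of all genes tested was -0.51 after silvestrol and -0.41 in DMSO. A ratio across the assays compares libraries that were prepared and scaled separately, so its zero has no absolute meaning, and the distance from the median of all genes is what can be read.

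The ratio spanned a wide range among members. H1-4 and H1-5 were at the top and within their errors of each other. H1-4 had a log2 ratio of 13.77 ± 1.02 (SE, 2 footprint and 3 RNA libraries per treatment) after silvestrol and 13.51 ± 1.02 in DMSO, and H1-5 had 13.74 ± 1.09 after silvestrol and 13.28 ± 1.09 in DMSO. H2BC12 was lowest, with 3.98 ± 0.17 after silvestrol and 4.04 ± 0.17 in DMSO. Between these, H1-2 stood at 10.18 ± 0.18 after silvestrol and 9.82 ± 0.18 in DMSO. H4C3 stood at 12.20 ± 0.35 after silvestrol and 12.23 ± 0.35 in DMSO. H4C16 was 6.90 ± 0.50 after silvestrol and 6.37 ± 0.50 in DMSO, and H2AC20 was 6.90 ± 0.20 after silvestrol and 6.43 ± 0.20 in DMSO. Within H4, H4C3 and H4C16 thus differed by over 5 on this scale in each treatment. H4C8 stood at 11.51 ± 1.03 after silvestrol and 11.22 ± 1.03 in DMSO, which overlapped with H4C3 within these errors. With a spread of its own for each assay, the errors in each treatment were 0.12 for H4C3 and 0.17 for H4C8. By those smaller errors H4C3 lay above H4C8 without overlap. Because RNA levels are near the pseudocount of 0.1 RPKM, the values depend on it: with 1 RPKM in its place, H1-4 had 11.80 after silvestrol and 11.61 in DMSO, and H1-5, then above it, had 12.05 after silvestrol and 11.81 in DMSO.

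In the ranking of all 11020 genes by this ratio, members held 19 of the 100 highest places after silvestrol and 20 in DMSO. No other protein-coding gene that the reference tables name was among those 100 in either treatment. The other places went to small nuclear, nucleolar and Cajal body RNAs, pseudogenes, a few other noncoding RNAs and IDs without an entry in those tables. Of the 25 highest named protein-coding genes, 22 were members after silvestrol and 22 in DMSO. The last of the 23 members ranked 30th after silvestrol and 27th in DMSO among 9138 protein-coding genes. Beyond the label total RNA, no source used here gives the selection of RNA before sequencing, and its part in the low RNA values of mRNAs without a poly(A) tail was not tested.

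**Figure D2:**
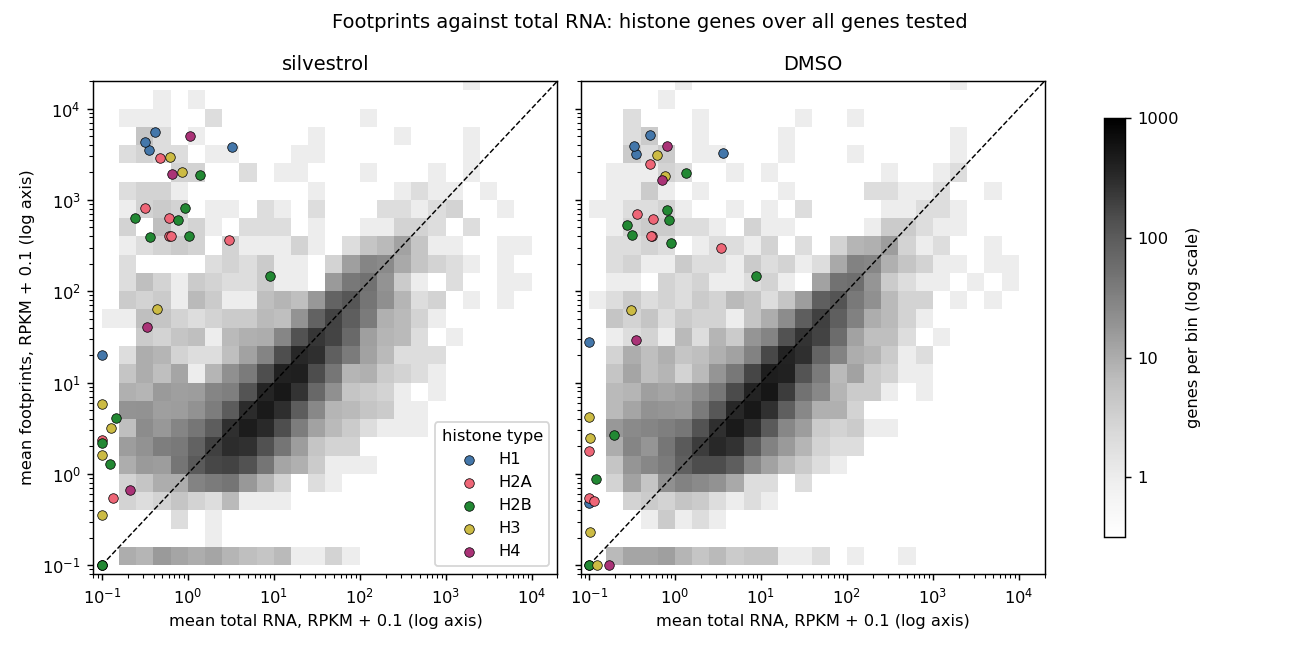
Mean footprint level against mean total RNA level, both as RPKM + 0.1 on log axes, after silvestrol (left) and in DMSO (right). Grey squares count the 11020 genes past both filters, coloured points are the 37 histone genes by type, and the dashed line marks equal values. The 23 histone genes past both filters lie above the dashed line in both panels, up to a DMSO log2 ratio of 13.51 for H1-4.

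RNA levels were also compared with the annotated 3′ end. Of the 18 members with a stem-loop, 12 have a transcript annotated to extend more than 100 bases past it, and none of these 12 had a mean of 1 RPKM in RNA (range 0 to 0.871 RPKM). For the 6 whose transcripts with the stem-loop end sooner the range was 0.0246 to 1.25 RPKM, and for the 19 without a match it was 0 to 8.92 RPKM. The value of 1.25 RPKM is that of H2BC5. That gene also has a coding transcript without the stem-loop, and its longest 3′ UTR has 384 bases. The ranges overlap throughout.

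Some members share long stretches of sequence with other genes, and reads that match several genes cannot be assigned to one by sequence. No source used here gives the treatment of such reads. The first 30 coding bases of the 4 H4 members show how far they differ, with bases unlike those of H4C3 in capitals.
H4C3: atgtctggtcgcggcaaaggcggaaaaggc
H4C8: atgtctggCcgTggTaaaggTggaaaaggT
H4C11: atgtctggCcgcggcaaaggcggGaaGggT
H4C16: atgtctggGcgAggTaaaggTggCaaGggG
Over the 312 coding bases, H4C8 differs from H4C3 at 58 positions, H4C16 at 59 and H4C11 at 61. Every 30-base window of H4C3 and H4C8 and 97.9% of those of H4C16 occur in no other GENCODE 29 gene, whereas every window of H4C11 occurs in another gene. H4C11 had 1.12 RPKM in 1 silvestrol footprint library and 0 in the other 3 footprint libraries.

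The same reading was made for all members. In 6 genes (HIST2H2AA3, H2BC12L, H2BC18, H3C14, H3C15 and H4C11) under 10% of the coding windows were unique, and their mean footprint levels were 0.194 to 3.27 RPKM. In 8 genes 10% to under 50% were unique, and 5 of these had at least 100 RPKM (median 239.5). In 23 genes at least 50% were unique, and 16 of these had at least 100 RPKM (median 757). In RNA, the first class reached at most 0.0920 RPKM. H2BC12 had the highest RNA level of all members and the lowest footprint level of the H2B genes with at least 100 RPKM. It had 13.1% unique windows. The low levels of the first class are therefore uncertain, and the part of shared sequence in them was not tested. Genes with mostly unique windows were not all high, since H1-1, H1-6, H2AC1, H2AC25, H2BC1 and H3-4 had over 85% unique windows and under 25 RPKM.

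**Figure D3:**
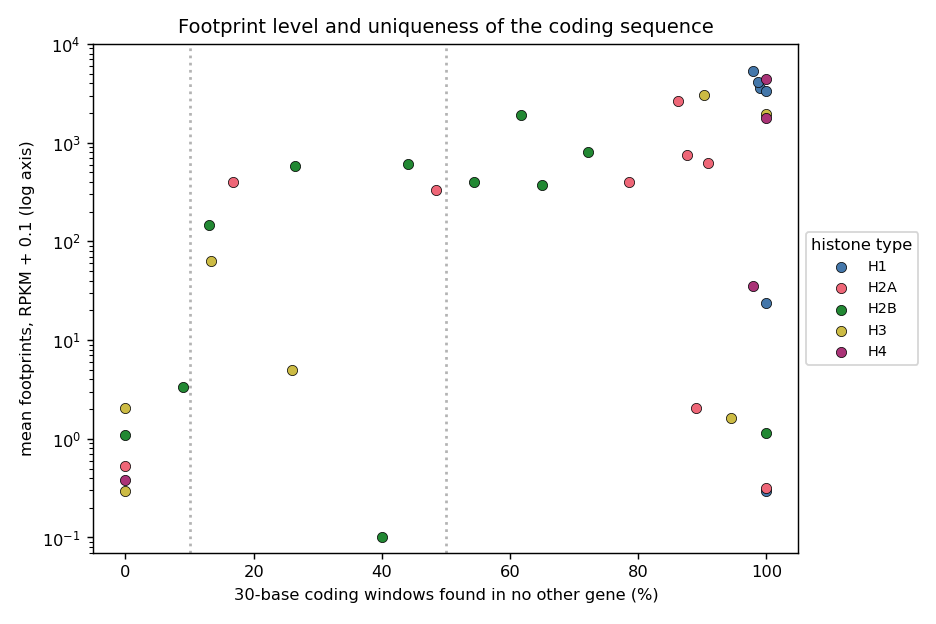
Mean footprint level over 4 libraries (RPKM + 0.1, log axis) against the percent of 30-base coding windows found in no other gene, for the 37 histone genes by type. Dotted lines mark 10% and 50%. The 6 genes left of the first line are at or under 3.27 RPKM, and the 10 genes above 1000 RPKM are all right of the second line.

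After silvestrol, footprints on most histone genes were slightly higher than in DMSO, and no single gene passed the test. With a mean of at least 1 RPKM in footprints, 30 members and 11973 genes were tested (limma on log2(RPKM + 0.1)). No member was called at an adjusted p under 0.05, nor was any gene (0% called in each direction), and 776 genes (6.48%) had an unadjusted p under 0.05. By other settings of the same test, 2 or 3 genes were called, and no member. The log2 change was above 0 for 23 of the 30 members, against 42.2% of all genes, with a median of 0.16 for members and -0.07 for all genes. Both silvestrol libraries lay above both DMSO libraries for 15 of the 30 members, against 13.7% of all genes. Both lay below for 3 of 30 (H1-6, H3C4 and H3C14), against 23.6%. The median SD between replicate footprint libraries was 0.07 for members and 0.23 for all genes after silvestrol. In DMSO it was 0.08 for members and 0.21 for all genes. A smaller shift separates the groups of such genes, so the shares over all genes are not a like baseline. H2BC1 and H3-4, listed at 0 in both DMSO libraries, passed the filter through silvestrol alone, and their direction follows from that. Without them 21 of 28 members were above 0, with a median of 0.16, and both silvestrol libraries lay above both DMSO libraries for 14 of 28.

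By histone type, both silvestrol libraries lay above both DMSO libraries for 4 of 5 tested H1 genes, 3 of 7 H2A genes, 4 of 9 H2B genes, 1 of 6 H3 genes and 3 of 3 H4 genes, and this difference between types was not tested. Without H2BC1 and H3-4 the counts were 3 of 8 for H2B and 1 of 5 for H3. Of the 21 members with at least 100 RPKM, 12 were above, 1 was below and 8 overlapped. Over all genes tested the shares were 13.7% above and 23.6% below. These shares are not a like baseline for any of these counts, because replicate footprints of members vary less. The share among all genes of at least 100 RPKM was not counted. In H4, the log2 change was 0.37 ± 0.12 (SE, 2 libraries each) for H4C3 (unadjusted p = 0.0281, adjusted p = 0.716, limma), 0.21 ± 0.14 for H4C8 (adjusted p = 0.823) and 0.45 ± 0.14 for H4C16 (unadjusted p = 0.0220, adjusted p = 0.702). H4C3 and H4C16 were the only 2 members with an unadjusted p under 0.05 in this comparison. In H1, the log2 change was 0.22 ± 0.11 for H1-2 (adjusted p = 0.765), 0.16 ± 0.12 for H1-4 and 0.12 ± 0.11 for H1-5. In H2A, it was 0.23 ± 0.11 for H2AC7, 0.20 ± 0.11 for H2AC21 and 0.30 ± 0.14 for H2AC20. Below 0, H2BC5 had -0.09 ± 0.13, which became 0.03 without the first silvestrol library, and H3C4 had -0.07 ± 0.11. The lowest values were those of genes with few footprints, -0.53 ± 0.24 for H1-6 (adjusted p = 0.765) and -0.59 ± 0.46 for H3C14 (adjusted p = 0.840).

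**Figure D4:**
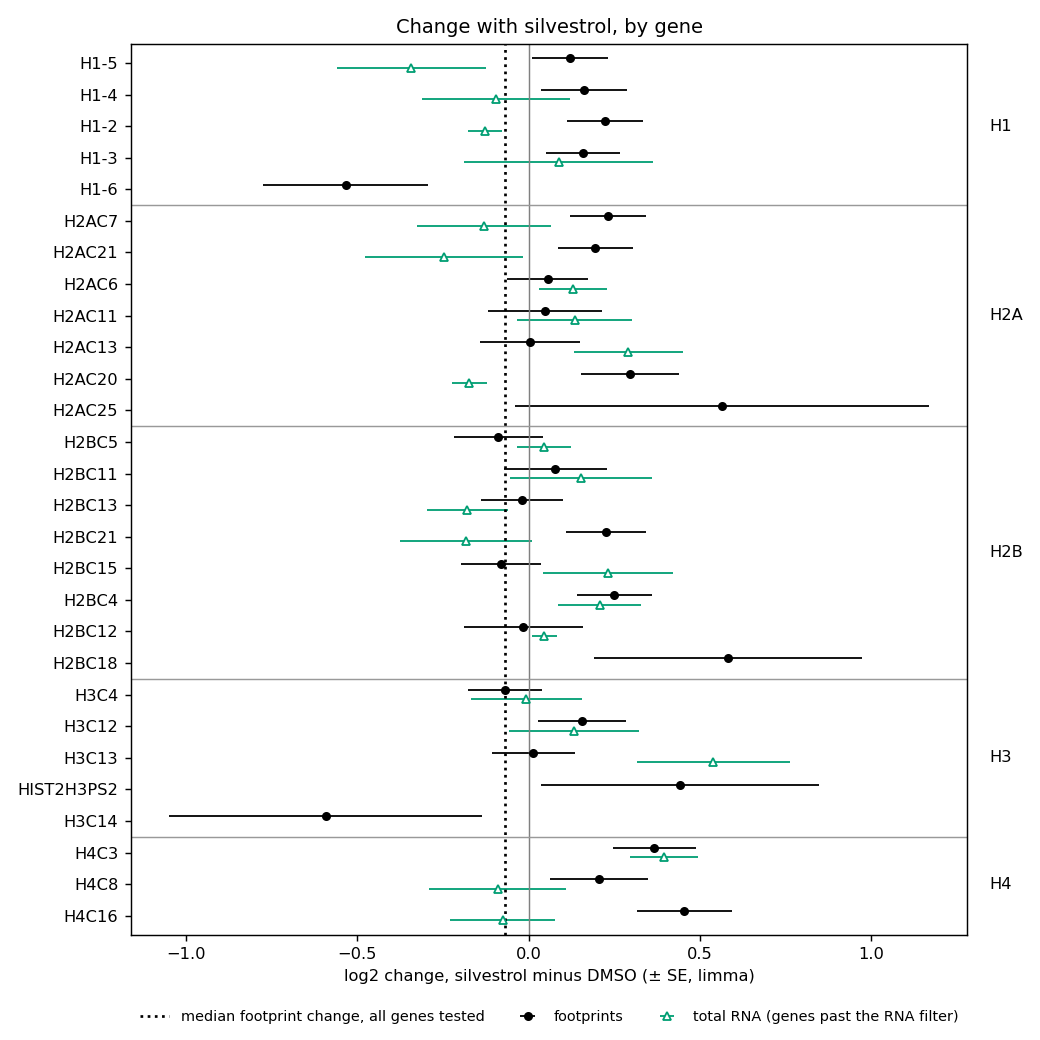
Log2 change, silvestrol minus DMSO, for 28 histone genes grouped by type, with the standard error from limma. Black circles are footprints (2 libraries per treatment), open triangles total RNA for the genes past the RNA filter (3 libraries per treatment), and the dotted line is the median footprint change of all genes tested, -0.07. H2BC1 and H3-4, whose SE exceeds 1, are not drawn. H4C3 lies right of 0 in both assays.

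Total RNA of the histone genes was not called as changed by silvestrol. With a mean of at least 0.1 RPKM in RNA, 23 members and 18391 genes were tested, and no member and no gene was called by limma (0% in each direction), with 4 of the 23 members and 1406 genes (7.65%) at an unadjusted p under 0.05. Restricting the test to genes of at least 1 RPKM in both assays gave 29 calls, none of them a member, but only 4 members passed that filter. The change was above 0 for 12 of the 23 members, against 51.9% of all genes, with a median of 0.05 for members and 0.00 for all genes. All silvestrol libraries lay above all DMSO libraries for 2 of 23, H2AC6 and H4C3, against 7.52% of all genes, and below for 2 of 23, H1-2 and H2AC20, against 4.30%. H4C3 had the smallest p, with a log2 change of 0.40 ± 0.10 (SE, 3 libraries each, unadjusted p = 0.00508, adjusted p = 0.375). H2AC20 had -0.17 ± 0.05 (adjusted p = 0.456), H1-2 had -0.13 ± 0.05 (adjusted p = 0.608) and H3C13 had 0.54 ± 0.22 (adjusted p = 0.634). H2BC12, the most abundant member in RNA, had 0.05 ± 0.04 (adjusted p = 0.869).

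Translational efficiency, the footprint change minus the RNA change on the log2 scale, was tested in a single model over both assays for the 23 members past both filters. No member was called in either direction and none had an unadjusted p under 0.05, a level that 790 genes (7.17%) reached. By the adjusted p, 13 of 11020 genes (0.118%) were called lower and 3 (0.0272%) higher. The balance of directions rested on single footprint libraries, with 13 lower and 23 higher without DMSO library 1 and 17 lower and 20 higher without DMSO library 2. Without silvestrol library 1 there were 60 lower and 15 higher, and without silvestrol library 2 there were 44 lower and 16 higher. The value was above 0 for 13 of the 23 members, against 40.8% of all genes, with a median of 0.04 for members and -0.08 for all genes. H2AC20 had 0.47 ± 0.28 (SE, adjusted p = 0.782) and H1-2 had 0.35 ± 0.25 (adjusted p = 0.847). For both genes footprints lay higher and RNA lower in every silvestrol library. H4C16 had 0.53 ± 0.71 (adjusted p = 0.945). In H4C3 the log2 changes with silvestrol were alike, at 0.37 in footprints and 0.40 in RNA. Its efficiency value was -0.03 ± 0.49 (adjusted p = 1.00), which took the other sign in several alternatives. With a single spread for both assays, H1-2 passed the test (adjusted p = 0.0413) and 573 genes were called in all.

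The precision of these values differs from that of most genes. The median SD of log2 footprint levels between replicate libraries was 0.07 after silvestrol and 0.08 in DMSO for members, against 0.23 after silvestrol and 0.21 in DMSO for all genes tested. In RNA it was 0.20 after silvestrol and 0.17 in DMSO for members, against 0.07 after silvestrol and 0.06 in DMSO for all genes. The model over both assays gives footprints a lower weight in every gene, which makes the errors of members larger than their own spread. With a spread of its own for each assay, the error for H1-2 was 0.13 in place of 0.25 and that for H4C3 was 0.17 in place of 0.49, and no member was called.

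In RPKM over the members of each type, H1 had the largest footprint sum and H2B the largest RNA sum among the genes analysed here. Sums per coding length were not made. Summed H1 footprints were 16676 and 17864 RPKM after silvestrol and 15506 and 15371 RPKM in DMSO, a ratio of 1.12. Summed H4 footprints were 7084 and 6718 RPKM after silvestrol and 5910 and 5159 RPKM in DMSO, a ratio of 1.25. Summed H2A footprints were 5485 and 5518 RPKM after silvestrol and 5049 and 4686 RPKM in DMSO, a ratio of 1.13. For H1, H4 and H2A the silvestrol and DMSO sums did not overlap. The ratio was 1.01 for H2B and 1.01 for H3, and both overlapped. No test was made on the type sums.

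In RNA, the sums ran differently. Summed H2B RNA averaged 13.3 ± 0.7 RPKM after silvestrol and 12.8 ± 0.2 RPKM in DMSO (SD, n = 3 each), of which H2BC12 alone gave 9.06 RPKM after silvestrol and 8.77 RPKM in DMSO. Summed H1 RNA averaged 3.99 ± 0.20 RPKM after silvestrol and 4.41 ± 0.14 RPKM in DMSO, and summed H2A RNA 5.13 ± 0.07 RPKM after silvestrol and 5.37 ± 0.15 RPKM in DMSO. Both were lower in every silvestrol library than in every DMSO library. The RNA ratio of silvestrol to DMSO was 0.904 for H1, 0.955 for H2A, 1.04 for H2B, 1.16 for H3 and 1.14 for H4. Over all 37 members it was 1.01, with sums of 25.2 to 26.3 RPKM after silvestrol and 25.5 to 25.8 RPKM in DMSO.

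**Figure D5:**
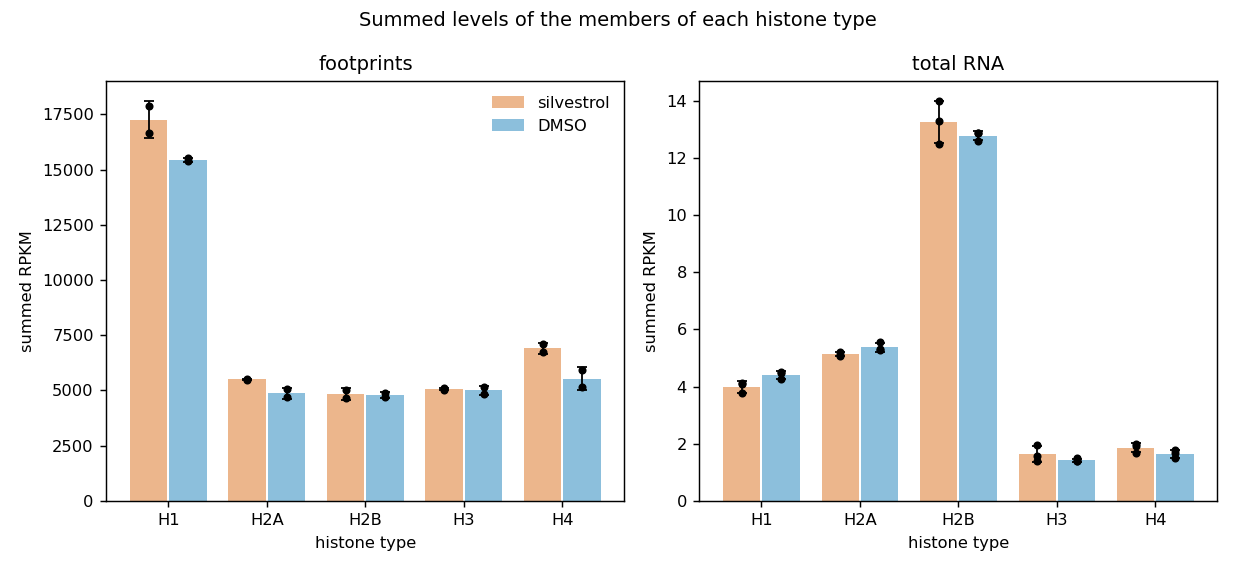
Summed RPKM of the members of each histone type in footprints (left) and total RNA (right), silvestrol beside DMSO. RPKM is per gene length, not per coding length. Bars are means, points single libraries and error bars the SD (n = 2 for footprints, n = 3 for RNA). Summed H1 footprints average 17270 RPKM after silvestrol and 15438 RPKM in DMSO, and H2B leads in RNA at 13.3 RPKM after silvestrol and 12.8 RPKM in DMSO.

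The replication-independent histone genes had a different balance of footprints and RNA. H3-3B, a gene for the replacement histone H3.3, had 42.1 and 40.6 RPKM in footprints and 290, 308 and 295 RPKM in RNA after silvestrol. In DMSO it had 59.3 and 52.6 RPKM in footprints and 307, 313 and 303 RPKM in RNA. Its log2 ratio was -2.84 ± 0.14 after silvestrol and -2.46 ± 0.14 in DMSO. H2AX, the variant phosphorylated at DNA breaks, whose gene can give both stem-loop and polyadenylated mRNAs, had a log2 ratio of 2.12 ± 0.19 after silvestrol and 1.84 ± 0.19 in DMSO. Of 10 replication-independent histone genes tested, 2 were higher in footprints than in RNA after silvestrol and 3 in DMSO, against 10.9% of all genes in each treatment. In each treatment 5 of the 10 were lower, against 44.1% of all genes after silvestrol and 39.1% in DMSO. The highest ratio of the list was that of H3-5, which encodes an H3.3-like variant, at 2.72 ± 0.88 after silvestrol and 2.58 ± 0.88 in DMSO. None was called for a silvestrol change in footprints, where the median was -0.11 and H3-3B had the smallest p, with -0.43 ± 0.13 (unadjusted p = 0.0214, adjusted p = 0.702).

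No gene of the lists that serve histone mRNAs, chaperone histones or act in S phase was called for a silvestrol change in footprints. SLBP had 131 and 147 RPKM in footprints after silvestrol and 124 and 117 RPKM in DMSO, a log2 change of 0.20 ± 0.12 (adjusted p = 0.809, limma), and its RNA change was 0.02 ± 0.02. NPAT had 6.81 and 5.22 RPKM in footprints after silvestrol and 6.85 and 5.83 RPKM in DMSO, which overlap. The footprint change was above 0 for 9 of 23 histone mRNA factors (median -0.08), 6 of 20 histone chaperones (median -0.17) and 3 of 16 S phase genes such as PCNA (median -0.06), against 42.2% of all genes (median -0.07). In footprints against RNA after silvestrol, 12 of the factors were called lower and 2 higher, 13 of the chaperones lower and 0 higher, and 8 of the S phase genes lower and 0 higher. In DMSO, 12 of the factors were lower and 3 higher, 13 of the chaperones lower and 1 higher, and 7 of the S phase genes lower and 0 higher. The shares over all genes were 44.1% lower and 10.9% higher after silvestrol and 39.1% lower and 10.9% higher in DMSO. After silvestrol the median log2 ratio of footprints to RNA was -0.63 for the factors, -0.63 for the chaperones and -0.35 for the S phase genes. In DMSO it was -0.36 for the factors, -0.56 for the chaperones and -0.26 for the S phase genes. None of 6 other RNAs without a poly(A) tail, chosen as a further comparison, matched an ID by name, so they gave no value.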

How the data were processed

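The authors deposited 1 table per library with an RPKM value for each Ensembl gene ID, per the file headers. The submitters' processing notes list STAR and the build hg19. No source used here gives the annotation, gene lengths, RNA selection or handling of reads that map to several places. Groups and replicate numbers came from the sample titles. The members, the gene lists and the tests were chosen with earlier results of these data known.

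Tests used limma 3.58.1 in R 4.3.3 on log2(RPKM + 0.1), with trended and robust variances, fitted over all genes past a mean of 1 RPKM in footprints and 0.1 RPKM in RNA, with Benjamini-Hochberg adjustment over all of them. Comparisons across assays used weights per assay. A fold change on this scale understates the change of low genes. Sums by type were not tested. The fits were tested on simulated reads, where fold changes were recovered and the efficiency test called more unchanged genes than its threshold allows. Depth was estimated from the step of the low values with GENCODE 29 exon lengths: 90.2% to 92.9% of low values lay within 0.05 of a whole read. Names, stem-loops and 30-base windows came from GENCODE 29. Genes named with values are the 3 highest per type by footprint RPKM and members of at least 1 RPKM in RNA. Members that were called, SLBP, NPAT, H2AX and H3-3B are also named. Others named were chosen after their values were seen. Alternatives were other pseudocounts, filters, scalings and spreads, a replicate block and leaving out each library.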

Additional observations from a re-analysis of the deposited data

How the results depend on the processing

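No member was called in the footprint or the RNA comparison under any alternative. Over all genes, the footprint comparison gave 3 calls with a pseudocount of 0.5 RPKM, 3 with 1 RPKM and 2 with at least 1 RPKM in both assays, a filter under which the RNA comparison gave 29. Translational efficiency gave 16 calls as reported, 7 and 6 with the pseudocounts of 0.5 and 1 RPKM, 573 with 1 spread (1 of them a member, H1-2, adjusted p = 0.0413; H3-3B reached 0.0323), 9 with a spread for each assay, which was chosen after seeing the data, and 9 to 75 without single libraries (75 and 60 without silvestrol footprint library 1 or 2, 36 and 37 without DMSO footprint library 1 or 2, 10 without DMSO RNA library 3 and 9 without silvestrol RNA library 2). Footprints against RNA in DMSO gave 5515 calls and 3114 to 5633 without single libraries (3297 and 3114 without DMSO footprint library 1 or 2); all 23 members were called in each. At 1 RPKM in both assays only 4 members could be tested, and 4 were called in each treatment. The efficiency value of H4C3 took the other sign with a pseudocount of 0.5 RPKM (0.092), of 1 RPKM (0.17) and median scaling (0.046), and ran from -0.10 to 0.06 without single libraries. SLBP in RNA gave -0.0028 with median scaling, and H2BC5 in footprints ran from -0.205 to 0.029 without single libraries. Ratios of summed RPKM moved with median scaling to 1.17 (H1), 1.06 (H3) and 1.16 (all members) in footprints, and with members of mostly unique windows to 1.01 (H2A) and 1.12 (H2B) in RNA. The cause of these shifts was not tested. Across the alternatives, the sign changed in at least 1 for 10 of 30 members in footprints, 8 of 23 in RNA and 9 of 23 in efficiency.

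The labels do not say whether equal replicate numbers mark paired samples. The correlation of deviations between same-numbered libraries was -0.0055 in footprints and -0.079 to 0.056 in RNA. With 2 footprint libraries per treatment the deviations mirror each other, so the value of the second replicate repeats that of the first. A low correlation cannot show that the samples were not paired. A fit with the replicate block gave 0 calls in footprints, 0 in RNA and 12 in efficiency, none a member. Precision was limited by 2 footprint libraries per treatment and by about 17 to 62 RNA reads per library for H1-4 and H1-5.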

Other observations

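Among the linker histone genes H1-2, H1-3, H1-4 and H1-5, RNA levels differed more than footprint levels. H1-1 and H1-6 were left out, with mean footprint levels of 0.193 and 23.9 RPKM and RNA listed at 0 throughout. H1-5, H1-4 and H1-3 had 0.366, 0.226 and 0.252 RPKM in RNA over 6 libraries, whereas H1-2 had 3.36 RPKM, and their mean footprint levels were 5320, 4105, 3360 and 3545 RPKM. The part of the annotation, of shared reads and of the RNA selection in this difference was not tested.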
